A study of Mus musculus with 6 samples.

Results

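The genes described here are a chosen set of cytosolic sulfotransferases of mouse liver and the synthases that supply them with activated sulfate. They were chosen by symbol, as 9 of the 40481 genes in the count table, namely Sult1a1, Sult1b1, Sult1c2, Sult1d1, Sult1e1, Sult3a1, Sult5a1, Papss1 and Papss2. The rule uses symbols only, but the members were chosen with earlier results of these data known. Liver RNA came from *Mttp* f/f Villin Cre ERT2 mice on a C57BL/6 background, in which the villin promoter drives a tamoxifen-inducible Cre in the intestinal epithelium and the floxed gene, *Mttp*, encodes the microsomal transfer protein needed to assemble chylomicrons. *Mttp-IKO* mice received tamoxifen at 50 µg/g body weight/day for 5 days, and control littermates, labelled wild type, received vehicle. Mice of 12–16 weeks of age of both genotypes were then fed a methionine- and choline-deficient (MCD) diet for 3 weeks, starting 3 weeks after injection, and were fasted for 4 h before livers were collected. Each genotype was sequenced as 3 pools, so the spread between pools is smaller than that between animals. The study's methods give RNA from 3–4 mice per pool, whereas the sample records give 12 livers in the series. The number of animals per pool is therefore uncertain. An effect of tamoxifen itself cannot be told apart from that of the deletion. All counts are reads assigned to a gene, and levels are TMM CPM, assigned reads scaled to library size with factors from the trimmed mean of M-values, given for pools 1, 2 and 3 of each genotype in that order.

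Sulfotransferases (SULTs) move a sulfonate group from the donor 3′-phosphoadenosine-5′-phosphosulfate (PAPS) onto phenols, steroids, amines and bile acids, which makes them more water soluble and usually ends their activity as hormones. PAPS is made from inorganic sulfate and ATP by the PAPS synthases Papss1 and Papss2. In liver much of the sulfate comes from the oxidation of cysteine, for which methionine, absent from the MCD diet, is a precursor. Several mouse hepatic SULT genes, with Sult3a1 and some of the Sult2a genes among them, are known to be expressed mainly in females.

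Pools held 25271585 to 36238734 assigned reads. Mttp mRNA in liver, where the villin promoter is not active in hepatocytes, was 150 ± 52.2 TMM CPM in control and 145 ± 15.95 in *Mttp-IKO* pools (mean ± SD, n = 3 each) and so does not check the intestinal deletion. Summed hepatocyte marker RNA spanned 74774–113172 TMM CPM in control and 134456–186525 in *Mttp-IKO* pools, 11 of 12 markers being matched. Alb made up most of this sum (40131–69006 against 84786–132236). Of the 11 markers, 6 lay wholly above the control range, 1 wholly below it and 4 overlapped it. Thus 63.6% were apart, against 31.0% of all genes tested. Among those not above were Ttr (2808–3828 against 1466–2740) and Ahsg (10015–12578 against 10743–11573). By edgeR's quasi-likelihood test 0 of the 11 were called, with 5 at an unadjusted p under 0.05, and DESeq2's Wald test called 5 higher. Of all 17287 genes tested, 3977 were at an unadjusted p under 0.05 by edgeR, and DESeq2's Wald test called 1995. Stellate cell and fibroblast markers spanned 951–1760 against 487–537, with 7 of 11 lower, and macrophage markers spanned 563–1186 against 370–440, with 3 of 11 lower and 1 higher. Endothelial markers (780–820 against 631–748), cholangiocyte markers (99.4–223 against 75.0–128) and lymphocyte markers (8.26–15.9 against 3.31–6.74) had 0 of 9, 0 of 8 and 0 of 10 called by edgeR, with 1, 3 and 3 at an unadjusted p under 0.05, and DESeq2's Wald test called 0, 1 and 2 lower. Striated muscle markers summed to 125 and 939 in control pools 1 and 2 and to at most 1.45 in the other 4 pools. Of these, 2 could be tested, 0 passed by edgeR and both were at an unadjusted p under 0.05 and called lower by DESeq2's Wald test. Small intestine markers, which include Apoa4, also a liver gene, spanned 1270–2434 against 803–2911 with 0 of 4 tested called by either tool and 0 at an unadjusted p under 0.05. In *Mttp-IKO* pool 3, genes with transcripts of 1000–2000 nt lay a median of 0.30 below their mean on the log2 scale, and those over 4000 nt lay 0.14 above it. Refits with the gene length trend removed, and with *Mttp-IKO* pool 3 left out, are given below. The part of the marker differences in the results below was not tested, and fewer cells of a type cannot be told apart from less RNA per cell.

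All 9 members passed the filter on low counts. Of these, 1 was higher in *Mttp-IKO* pools by edgeR's quasi-likelihood test (Benjamini-Hochberg adjusted p under 0.05) and 0 were lower, where 0.92% of the 17287 genes tested were called higher and 3.09% lower. The member called was Sult3a1, which enters the test only through its *Mttp-IKO* reads. At an unadjusted p under 0.05 there were 3 of the 9 members, Sult3a1, Sult1d1 and Papss1, and 3977 of the 17287 genes tested. Sult1d1 had the next smallest adjusted p, 0.052, and DESeq2's Wald test placed it at an adjusted p of 0.0027. That test called 2 members, where it called 1995 genes in all. For 4 of the 9 members all *Mttp-IKO* pools lay on the same side of the control range (44.4%, against 31.0% of all genes tested), with Sult1d1 and Sult3a1 above and Sult1c2 and Papss1 below the control range. The median log2 fold change of the members was 0.37, the value of Sult5a1, which turned negative without control pool 1 (−0.075) or *Mttp-IKO* pool 3 (−0.050), and that of all genes tested was 0.01.

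**Figure D1:**
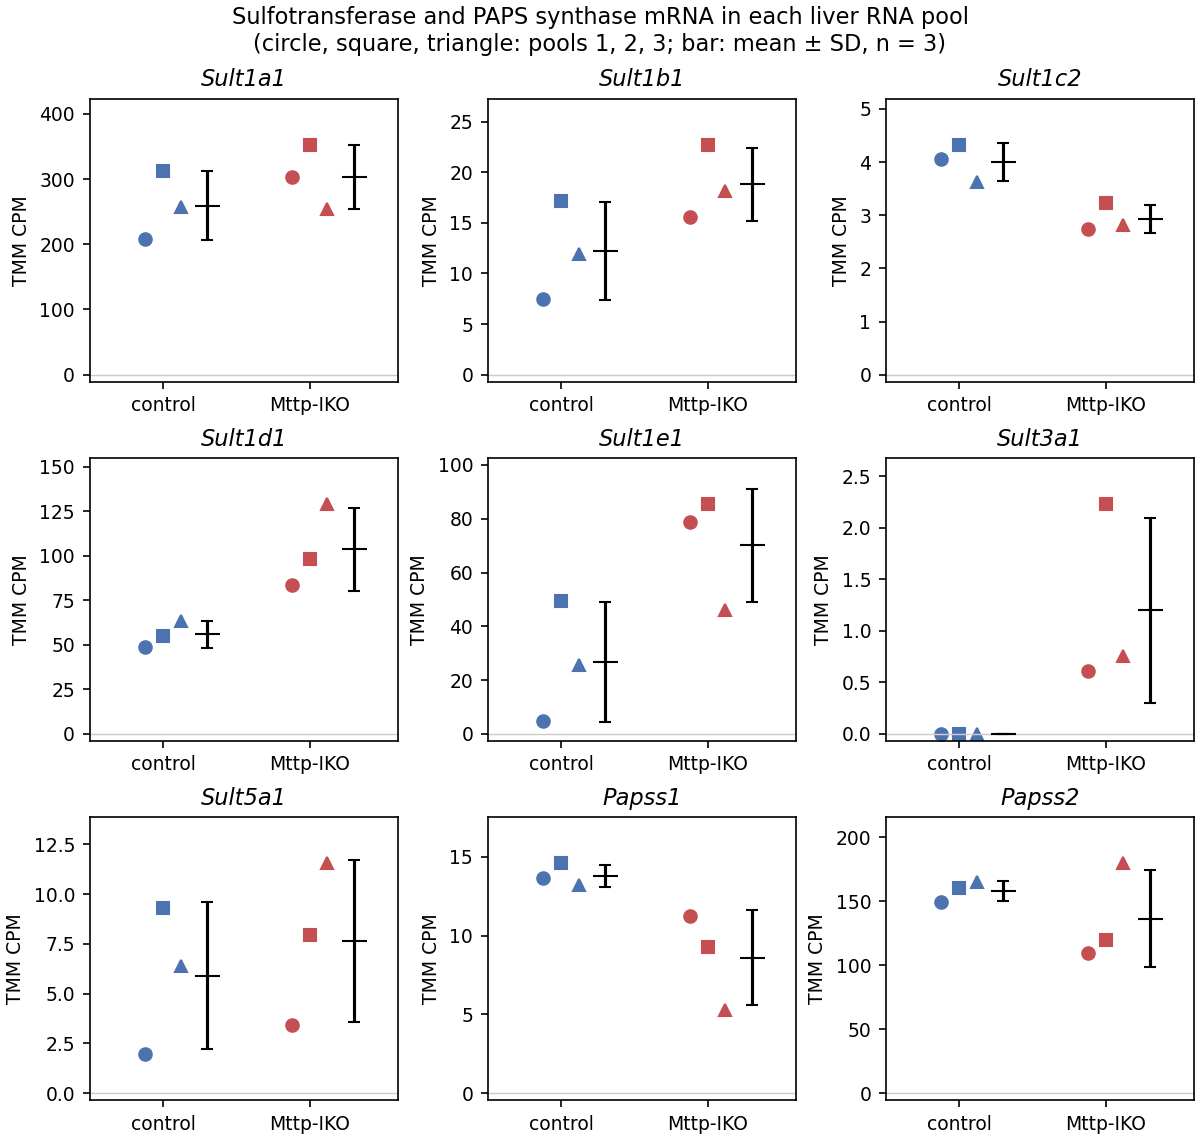
Level of each member in each liver RNA pool, in TMM CPM on linear axes that start at 0, with circles, squares and triangles for pools 1, 2 and 3 and bars for the mean ± SD of 3 pools. Sult3a1 lies at 0 in every control pool, the Sult1d1 pools do not overlap, and control pool 1 is the lowest pool for Sult1e1, Sult1b1 and Sult5a1.

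The promoters of the members on which the results turn are shown first, as the 250 bases before the RefSeq transcription start (assembly GRCm38.p6, 5′ to 3′ on the strand of the gene). Sult1b1, Sult1d1 and Sult1e1 are neighbours on chromosome 5 and are shown together, and Sult3a1, on chromosome 10, is the member called. Capitals mark AGGTCA, the half-site of many nuclear receptors (either strand), TTCNNNGAA, the palindrome bound by STAT factors, and TATAAA, the TATA box (gene strand only). Within none of the 4 sequences do marked motifs overlap. The sequences cover chr5:87538196-87538445 (minus strand) for Sult1b1, chr5:87569007-87569256 (minus) for Sult1d1, chr5:87591612-87591861 (minus) for Sult1e1 and chr10:33857472-33857721 (plus) for Sult3a1, whose RefSeq start lies 6213 nt upstream of the gene start in the deposited annotation.
Sult1b1: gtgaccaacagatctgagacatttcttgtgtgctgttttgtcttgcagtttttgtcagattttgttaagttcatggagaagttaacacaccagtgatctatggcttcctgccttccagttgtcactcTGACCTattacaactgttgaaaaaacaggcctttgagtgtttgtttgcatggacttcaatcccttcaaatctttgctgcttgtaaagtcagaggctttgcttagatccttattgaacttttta
Sult1d1: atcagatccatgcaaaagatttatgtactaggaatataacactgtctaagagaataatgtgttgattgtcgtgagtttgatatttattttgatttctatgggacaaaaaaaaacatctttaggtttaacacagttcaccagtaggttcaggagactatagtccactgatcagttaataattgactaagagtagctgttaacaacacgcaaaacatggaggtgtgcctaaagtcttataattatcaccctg
Sult1e1: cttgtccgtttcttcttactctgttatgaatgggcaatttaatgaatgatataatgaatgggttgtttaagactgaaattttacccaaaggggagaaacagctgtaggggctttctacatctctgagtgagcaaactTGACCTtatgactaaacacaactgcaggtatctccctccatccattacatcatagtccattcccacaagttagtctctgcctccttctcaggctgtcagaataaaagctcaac
Sult3a1: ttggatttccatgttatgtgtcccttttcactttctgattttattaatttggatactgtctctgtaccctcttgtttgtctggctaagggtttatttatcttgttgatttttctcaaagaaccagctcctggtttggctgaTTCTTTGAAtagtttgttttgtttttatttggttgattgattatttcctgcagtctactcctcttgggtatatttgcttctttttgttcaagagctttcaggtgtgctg

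AGGTCA was found once on the opposite strand, as TGACCT, in the Sult1b1 window (bases -123 to -118 from the start) and once in the Sult1e1 window (-113 to -108), and 14.0% of 32851 RefSeq promoter windows of this length held it. TTCNNNGAA occurred once, in the Sult3a1 window (-109 to -101), and 7.02% of all windows held it. None of the 3 motifs was in the Sult1d1 window, and TATAAA, present in 7.59% of all windows, was in none of the 4. These matches describe the letters only. All 9 members had a promoter entry, and Papss2 alone of the other members held a motif, TGACCT.

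Sult3a1 (ENSMUSG00000069668, chr10:33863935-33879475 in GRCm38, plus strand, 1047 nt of transcript) encodes a sulfotransferase that acts on amines. It had 0, 0 and 0 reads in control pools and 19, 65 and 18 reads in *Mttp-IKO* pools, or 0.612, 2.23 and 0.755 TMM CPM. No control pool held a read and every *Mttp-IKO* pool did. Against a floor of 3 reads in each control pool (0.0744–0.0937 TMM CPM), the *Mttp-IKO* mean was at least 14.3-fold higher, and the lowest *Mttp-IKO* pool at least 6.54-fold higher than the highest of these floors. The adjusted p was 0.030 (edgeR). It was 0.099 without control pool 1, 0.088 without control pool 3, 0.061 without *Mttp-IKO* pool 1 and 0.0998 without *Mttp-IKO* pool 2. Over all genes these omissions left 24, 21, 55 and 0 calls in that order, against 694 with all pools. The call thus depended on single pools, but this was not particular to Sult3a1. Lost calls of other genes given below came from the same omissions. Sult3a1 stayed scarce, at 1.15 ± 0.855 TMM CPM per kb in *Mttp-IKO* pools (n = 3), and a filter of at least 1 CPM in 3 pools leaves it untested. Its near-identical neighbour Sult3a2 had 0, 0 and 0 reads in control and 2, 5 and 0 in *Mttp-IKO* pools, and the authors' counting kept uniquely aligned reads only, so the split of reads between these copies is uncertain.

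The Sult2a genes encode hydroxysteroid and bile acid sulfotransferases, and Sult2a1, Sult2a2 and Sult2a3 were at 10 reads or fewer in every control pool. Sult2a3 had 2, 0 and 1 reads in control and 35, 20 and 8 in *Mttp-IKO* pools, a ratio of pooled read rates of 27.1 (95% exact interval 8.86–135, counting error only) with an adjusted p of 0.030 (edgeR). Like Sult2a2, it entered the test only through its *Mttp-IKO* reads. The Sult2a3 call was lost without control pool 1 (0.113), control pool 3 (0.127), *Mttp-IKO* pool 1 (0.079) or *Mttp-IKO* pool 2 (0.118). Sult2a2 had 10, 2 and 8 reads against 345, 41 and 8, with an adjusted p of 0.085, and *Mttp-IKO* pool 1 supplied most of its reads. Sult2a1, at 4, 6 and 0 against 57, 4 and 2 reads, was too scarce to be tested, and *Mttp-IKO* pool 1 was again the high pool. Sult2a8, a bile acid sulfotransferase and the abundant member of this subfamily, measured 17.6, 65.2 and 37.7 TMM CPM in control and 12.4, 14.7 and 87.1 in *Mttp-IKO* pools (adjusted p = 0.965), so the *Mttp-IKO* range enclosed the control range. Of the 14 other cytosolic sulfotransferase genes matched, 4 could be tested and 1 was called higher, where 0.92% of all genes tested were, and 2 of the 4, Sult2a2 and Sult2a3, entered the test only through *Mttp-IKO* reads. The other two, Sult2a8 and Sult2b1, had log2 fold changes of −0.08 and −1.07. Sult2b1, a cholesterol sulfotransferase, was at most 1.5 TMM CPM in any pool, and Sult1c1 had 0 reads in all 6 pools, which allows up to 0.119 CPM in the shallowest.

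Of other genes known to be female-biased in mouse liver, 5 of 12 tested were higher and 0 lower (edgeR), where 0.92% of all genes tested were higher. The 5 were Cux2, a transcription factor, and the cytochromes P450 Cyp2b13, Cyp3a41a, Cyp3a41b and Cyp3a44. Cux2 measured 4.36, 7.43 and 6.997 TMM CPM in control and 31.1, 88.8 and 63.8 in *Mttp-IKO* pools (log2 fold change 3.29 ± 0.40 SE, adjusted p = 0.016). Cyp3a41a measured 0.545, 1.86 and 2.09 against 49.999, 50.7 and 13.7 (4.68 ± 0.65, adjusted p = 0.018), although it and Cyp3a41b are near-identical copies. Cyp3a41b, at 2, 3 and 13 control reads, entered the test only through its *Mttp-IKO* reads. The median log2 fold change of the 12 was 1.01, and the summed level of the 13 genes matched was 994–1151 TMM CPM in control and 1923–2705 in *Mttp-IKO* pools. All 5 calls were lost without *Mttp-IKO* pool 2 (0.091–0.0998) or control pool 1 (0.065–0.105), 4 were also lost without *Mttp-IKO* pool 1 (0.061 each, Cux2 excepted), and 4 without control pool 3 (0.054–0.075, Cyp3a41b excepted). Xist, expressed in female cells, was at 0.422–1.51 TMM CPM and the Y-linked Ddx3y at 36.1–67.9 over the 6 pools, as in male tissue in every pool.

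Of the male-biased genes, 1 of 13 was higher (Cyp2d9, 133, 237 and 176 against 414, 376 and 422 TMM CPM, adjusted p = 0.039) and 0 were lower, with a median log2 fold change of 0.33. Without *Mttp-IKO* pool 3, however, 1 was higher and 6 were lower, with a median of −1.21. The 6, named after their values were seen, were Cyp4a12a (log2 fold change −5.31, adjusted p = 0.0089), Elovl3 (−5.32, 0.019), Mup20 (−2.58, 0.0089), Selenbp2 (−1.68, 0.030), C6 (−1.21, 0.011) and Cyp7b1 (−1.18, 0.044), all by edgeR. The Cyp2d9 call was lost without control pools 1 (0.139) or 3 (0.173) or *Mttp-IKO* pools 1 (0.085) or 2 (0.128). The summed level of this list was 707–830 TMM CPM in control pools, 554 and 521 in *Mttp-IKO* pools 1 and 2, and 1187 in *Mttp-IKO* pool 3, the same pool in which Sult2a8 and, of the members, Sult1d1, Sult5a1 and Papss2 were highest. The part of this pool difference in the sulfotransferase values was not tested.

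**Figure D2:**
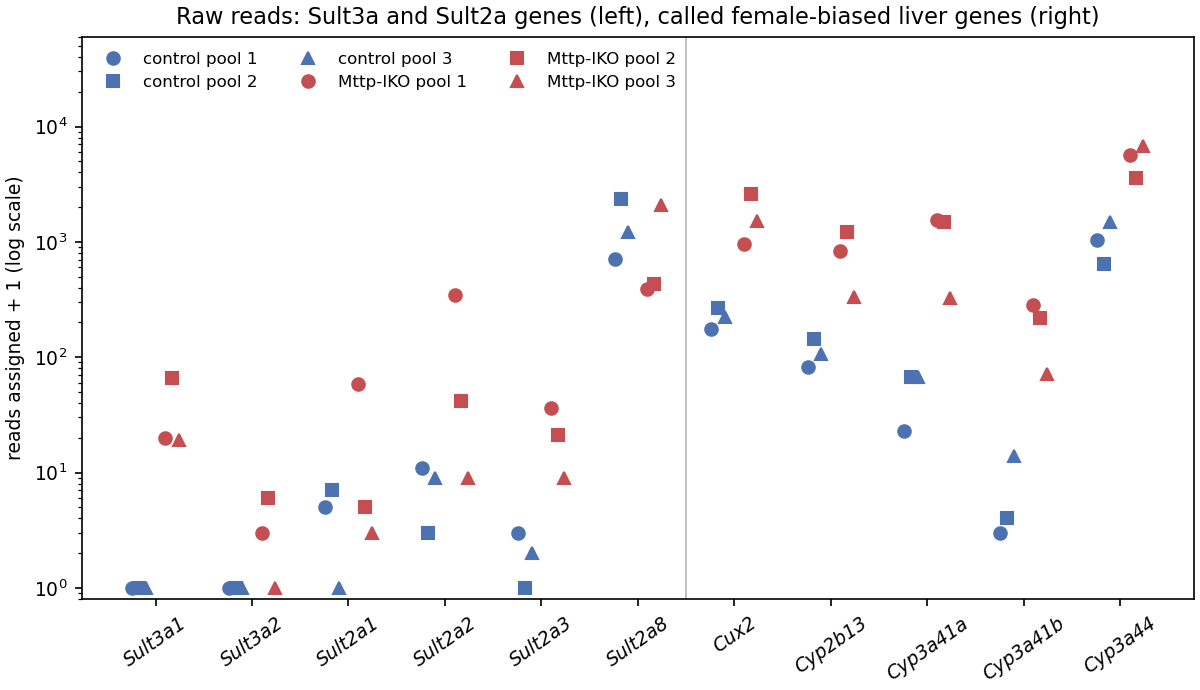
Reads assigned per pool, plus 1, on a log axis, for Sult3a and Sult2a genes (left) and for the 5 female-biased liver genes called higher (right), with blue for control and red for *Mttp-IKO* pools. Sult3a1 has 0 reads in every control pool and 18 to 65 in *Mttp-IKO* pools, and Sult2a8 overlaps between genotypes.

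For the gene whose pools most resemble those of Sult3a1, each profile was centred on its own mean over the 6 pools and compared by the root mean square (RMS) difference on the log2 scale, among 12586 genes of average log2 CPM of at least 1. In the control pools, where Sult3a1 had no reads, its profile is set by the prior count of 2 added before taking logs. The closest was Cux2 (RMS 0.60), followed by Fam19a2 (0.70) and Cyp2b13 (0.72). Fam19a2 measured 0.124, 0.166 and 0.187 TMM CPM in control and 4.19, 3.12 and 4.15 in *Mttp-IKO* pools. For Sult1d1, a comparison added after its values were seen, the closest were Atl2, Fastkd1 and Nucks1 (RMS 0.089, 0.092 and 0.095). Each was above the control range in every *Mttp-IKO* pool and none passed the threshold (adjusted p 0.065–0.072, edgeR). Genes chosen for pools like those of a member share its direction by that choice, so this is no separate result.

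Sult1d1 (ENSMUSG00000029273, chr5:87554645-87569027, minus strand, 2459 nt) encodes a sulfotransferase with activity toward catecholamines. It measured 48.7, 55.3 and 63.5 TMM CPM in control pools and 83.6, 98.5 and 129 in *Mttp-IKO* pools. Every *Mttp-IKO* pool was above every control pool, and the means were 55.8 ± 7.39 and 104 ± 23.2 (SD, n = 3 each), a 1.86-fold ratio. The log2 fold change was 0.89 ± 0.20 (SE, 95% interval 0.43 to 1.36) with an adjusted p of 0.052 by edgeR, just outside the threshold. Sult1d1 came to pass under 9 of 19 alternatives. Of these, the threshold of 0.1 only loosened the cutoff and left the adjusted p at 0.052. The others included DESeq2's Wald test (0.0027), removal of the gene length trend (0.038) and omission of *Mttp-IKO* pool 3 (0.047). The adjusted p was as high as 0.200 without control pool 1.

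Sult1e1 (ENSMUSG00000029272, chr5:87575968-87591611, minus strand, 1260 nt) encodes the oestrogen sulfotransferase. It measured 4.71, 49.4 and 25.8 TMM CPM in control and 78.8, 85.4 and 46.1 in *Mttp-IKO* pools. Control pool 1 was far below the other 5, and *Mttp-IKO* pool 3 was below control pool 2, so the genotypes overlapped. The means were 26.6 ± 22.4 and 70.1 ± 21.0 (SD, n = 3 each) and the log2 fold change was 1.398 ± 0.67 (SE, 95% interval −0.15 to 2.95, adjusted p = 0.261, edgeR). This fitted value was the largest among the 8 members with reads in control pools, and it was 0.88 to 2.19 as each pool was left out. The highest control pool was 10.5-fold above the lowest, a larger ratio than in 99.7% of 12594 genes of average log2 CPM of at least 1, whereas in *Mttp-IKO* pools it was 1.85-fold.

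Sult1b1 (ENSMUSG00000029269, chr5:87513339-87538195, minus strand, 2780 nt) encodes a sulfotransferase for phenols and thyroid hormones. It measured 7.51, 17.1 and 11.9 TMM CPM in control and 15.5, 22.7 and 18.1 in *Mttp-IKO* pools, where only *Mttp-IKO* pool 1 lay within the control range. The log2 fold change was 0.62 ± 0.30 (SE, adjusted p = 0.259). Within 500 kb of this trio, 6 other genes could be tested, of which 0 were called higher or lower and the median log2 fold change was 0.11. They were 5 Ugt2 glucuronosyltransferase genes and the casein gene Csn3. Of these Ugt2a3 had the smallest adjusted p (0.072, log2 fold change 1.03), and Ugt2b36 and Ugt2b5 each had a log2 fold change of −0.10.

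Sult1a1 (ENSMUSG00000030711, chr7:126672865-126676432, minus strand, 1507 nt) encodes the main phenol sulfotransferase of liver and was the most abundant member in every pool. It measured 208, 313 and 258 TMM CPM in control and 303, 353 and 254 in *Mttp-IKO* pools, with overlap between genotypes. The log2 fold change was 0.23 ± 0.21 (SE, adjusted p = 0.567, edgeR), with a 95% interval of −0.27 to 0.72. Its locus overlaps Sgf29 on the opposite strand, and the strand setting of the authors' counting is not given in the sources used here.

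Sult5a1 (ENSMUSG00000000739, chr8:123142847-123158315, minus strand, 1764 nt), whose substrates are poorly known, measured 1.98, 9.32 and 6.40 TMM CPM in control and 3.45, 7.92 and 11.5 in *Mttp-IKO* pools. Pool 1 was the lowest of each genotype and the ranges overlapped. The log2 fold change of 0.37 ± 0.58 (SE, adjusted p = 0.740) became −0.08 without control pool 1 and −0.05 without *Mttp-IKO* pool 3. The locus overlaps Gm20388 on the opposite strand, which had 0 reads in all pools.

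Sult1c2 (ENSMUSG00000023122, chr17:53829637-53846339, minus strand, 1846 nt), a phenol sulfotransferase, was the only sulfotransferase among the members whose *Mttp-IKO* pools all lay below the control range. It measured 4.07, 4.33 and 3.62 TMM CPM in control and 2.74, 3.22 and 2.81 in *Mttp-IKO* pools, on 67 to 164 reads. The log2 fold change was −0.45 ± 0.22 (SE, 95% interval −0.96 to 0.05) with an adjusted p of 0.263, and it was −0.54 to −0.41 as each pool was left out.

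**Figure D3:**
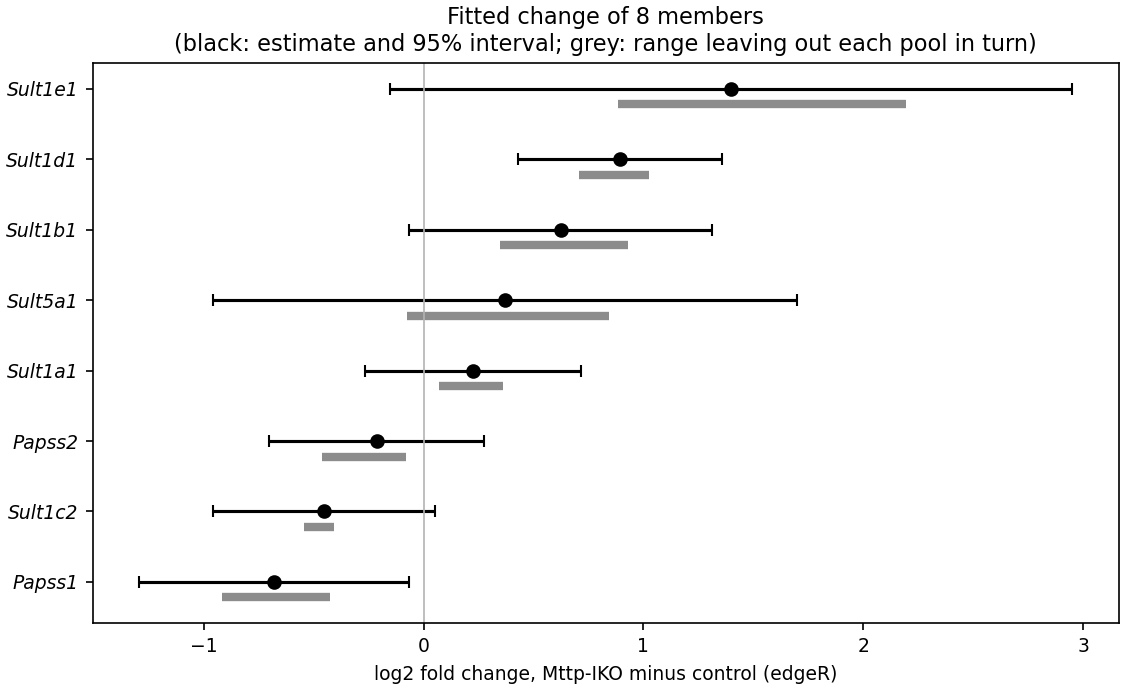
Fitted log2 fold change (*Mttp-IKO* minus control) of the 8 members with reads in control pools, with 95% intervals in black and, in grey, the range as each of the 6 pools was left out. The intervals of Sult1d1 and Papss1 exclude 0 before adjustment over all genes, and that of Sult1e1 is the widest.

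The PAPS synthases did not pass the test. Papss2 (ENSMUSG00000024899, chr19:32620005-32667187, plus strand, 3635 nt), the more abundant, measured 149, 160 and 165 TMM CPM in control and 110, 120 and 180 in *Mttp-IKO* pools. *Mttp-IKO* pools 1 and 2 lay below the control range and pool 3 above it, and the log2 fold change was −0.21 ± 0.21 (SE, 95% interval −0.70 to 0.28, adjusted p = 0.585, edgeR). Papss1 (ENSMUSG00000028032, chr3:131564768-131643670, plus strand, 2599 nt) measured 13.6, 14.6 and 13.2 TMM CPM in control and 11.2, 9.29 and 5.29 in *Mttp-IKO* pools, all below the control range. Its log2 fold change was −0.68 ± 0.27 (SE, 95% interval −1.29 to −0.07) with an adjusted p of 0.180, which stayed between 0.106 and 0.393 under every alternative run. The ratio of Papss2 to Papss1 mRNA was 10.95, 10.97 and 12.5 in control pools and 9.76, 12.9 and 34.0 in *Mttp-IKO* pools. The genotypes overlapped and the difference in mean log2 ratio, 0.50, had an exact two-sided permutation p of 0.6, where the smallest p that 3 against 3 pools allow is 0.1. It rested on *Mttp-IKO* pool 3, since it was −0.03 without that pool.

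Levels of different genes were compared only after division by transcript length. Per kb, among the members, Sult1a1 led in control pools (172 ± 34.9 TMM CPM per kb, SD, n = 3), followed by Papss2 (43.5 ± 2.21), Sult1d1 (22.7 ± 3.01), Sult1e1 (21.1 ± 17.7), Papss1 (5.31 ± 0.270), Sult1b1 (4.39 ± 1.73), Sult5a1 (3.35 ± 2.09), Sult1c2 (2.17 ± 0.192) and Sult3a1 at 0. Sult2a8, which is not a member, was at 16.6 ± 9.87 in control and 15.8 ± 17.6 in *Mttp-IKO* pools. Sult1a1 and Papss2, and Papss2 and Sult1d1, were apart in every control pool, whereas from Sult1d1 down to Sult1c2 each gene overlapped the next. In *Mttp-IKO* pools Sult1a1 (201 ± 32.6) was again apart from the rest, and Sult1e1 (55.7 ± 16.7), Sult1d1 (42.2 ± 9.42) and Papss2 (37.5 ± 10.4) overlapped one another in that order. Papss1 (3.31 ± 1.16) came after Sult1b1 (6.76 ± 1.31) and Sult5a1 (4.33 ± 2.30) there, with each overlapping the next, and Sult1c2 (1.58 ± 0.142), apart from these, overlapped Sult3a1.

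Summed over the 21 sulfotransferase genes matched, the level was 176, 312 and 244 TMM CPM per kb in control and 331, 368 and 311 in *Mttp-IKO* pools, so that *Mttp-IKO* pool 3 fell just below control pool 2. Of this sum Sult1a1 made up 71.8 ± 6.02% in control and 59.5 ± 4.77% in *Mttp-IKO* pools, Sult1e1 7.70 ± 5.26% and 16.4 ± 3.98%, and Sult1d1 9.70 ± 2.18% and 12.7 ± 3.65% (SD, n = 3 each). The share of Sult1a1 was below the control range in all 3 *Mttp-IKO* pools (60.7, 63.6 and 54.3% against 78.4, 66.6 and 70.2%), while those of Sult1e1 and Sult1d1 overlapped between genotypes.

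**Figure D4:**
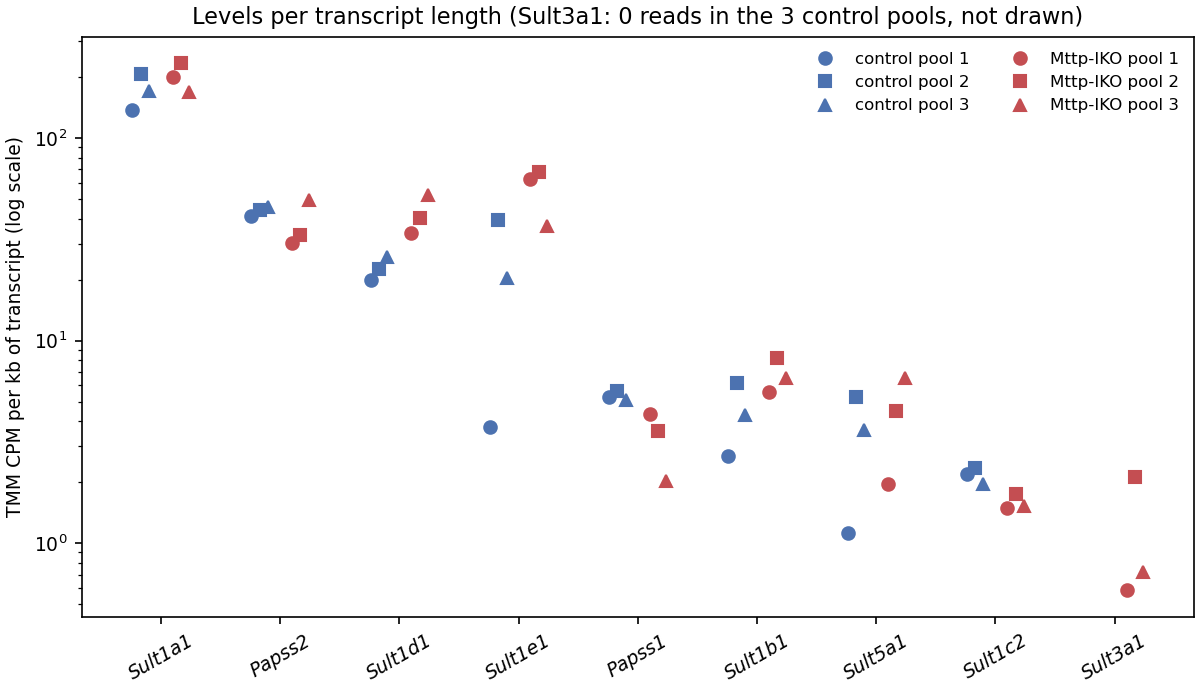
Level of each member per kb of transcript in each pool, in TMM CPM per kb on a log axis, ordered by the control mean, with blue for control and red for *Mttp-IKO* pools. Sult1a1 is at 138 to 234 in all pools, and the zero values of Sult3a1 in control pools cannot be drawn on this axis.

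Around the members, genes of sulfate supply and PAPS turnover had 0 of 19 tested called higher and 1 lower by edgeR, 2 higher and 2 lower by DESeq2's Wald test, and a median log2 fold change of −0.01. The pools of 4 lay wholly above and of 4 wholly below the control range, 8 of 19 (42.1%, against 31.0% of all genes tested). The gene that fell was Csad, cysteine sulfinate decarboxylase, which diverts oxidised cysteine to taurine. It measured 123, 46.5 and 73.5 TMM CPM in control and 14.0, 11.6 and 26.9 in *Mttp-IKO* pools (log2 fold change −2.21 ± 0.43 SE, adjusted p = 0.035, edgeR), with every *Mttp-IKO* pool below every control pool. Its adjusted p was 0.109 without control pool 1, 0.105 without control pool 3, 0.092 without *Mttp-IKO* pool 1 and 0.137 without *Mttp-IKO* pool 2. Cdo1, cysteine dioxygenase, the step before Csad, measured 483, 806 and 655 against 1125, 1569 and 885 TMM CPM and did not pass by edgeR (0.88 ± 0.28, adjusted p = 0.119). Its adjusted p ranged from 0.022 to 0.371 over the alternatives.

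The sulfate transporters and the oxidase did not pass by edgeR either. Slc26a1, the sulfate anion transporter of hepatocytes, measured 137, 292 and 220 TMM CPM in control and 181, 209 and 254 in *Mttp-IKO* pools (−0.01 ± 0.28, adjusted p = 0.986). Suox, sulfite oxidase, which forms sulfate, measured 54.4, 53.8 and 59.3 against 31.2, 44.5 and 56.1 (−0.35 ± 0.22, adjusted p = 0.374). Slc13a1, a sodium-sulfate cotransporter best known from kidney, was scarce at 0.843, 0.970 and 0.906 against 1.45, 2.40 and 3.36 TMM CPM, without overlap (1.398 ± 0.37, adjusted p = 0.074). Over the alternatives the adjusted p of Slc13a1 ranged from 0.0094 to 0.248. The phosphatases that degrade the by-product of sulfonation had log2 fold changes of −0.04 ± 0.14 (Bpnt1) and 0.32 ± 0.16 (Impad1), and the Golgi PAPS transporters had 0.14 ± 0.21 (Slc35b2) and 0.19 ± 0.16 (Slc35b3), all with adjusted p above the threshold (0.268–0.887).

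Of the sulfatases, which remove sulfate, 0 of 12 tested were higher and 1 was lower, with a median log2 fold change of −0.07. This was Sulf1, an extracellular heparan sulfate sulfatase, at 4.66, 5.10 and 5.93 TMM CPM in control and 1.93, 2.57 and 2.31 in *Mttp-IKO* pools (−1.20 ± 0.23, adjusted p = 0.036, edgeR). That call was lost without control pool 1 (0.110), control pool 3 (0.152), *Mttp-IKO* pool 1 (0.085) or *Mttp-IKO* pool 2 (0.118). The Golgi sulfotransferases sulfate glycans and protein tyrosine from the same PAPS. Of 22 tested, 0 were called in either direction by edgeR, where 4.01% of all genes tested were, and their median was −0.38. At an unadjusted p under 0.05 there were 5, where 3977 of the 17287 genes tested were. DESeq2's Wald test called 4, where it called 1995 genes in all. The stellate cell and fibroblast markers, 7 of 11 lower, moved in the same direction as Sulf1, and their part in it was not tested.

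Of 15 transcription factors reported to act on sulfotransferase genes, 0 were called in either direction by edgeR, with a median log2 fold change of 0.27. At an unadjusted p under 0.05 there were 3, where 3977 of the 17287 genes tested were. DESeq2's Wald test called 1, where it called 1995 genes in all. The pools of 4 lay wholly above and of 2 wholly below the control range (40%, against 31.0% of all genes tested). Hnf4a, which maintains hepatocyte gene expression, measured 564, 686 and 600 TMM CPM in control and 868, 1203 and 1318 in *Mttp-IKO* pools, without overlap (0.87 ± 0.22, adjusted p = 0.066). The xenobiotic receptors Nr1i2 (0.40 ± 0.15, adjusted p = 0.171) and Nr1i3 (0.70 ± 0.31, adjusted p = 0.225) did not pass either.

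**Figure D5:**
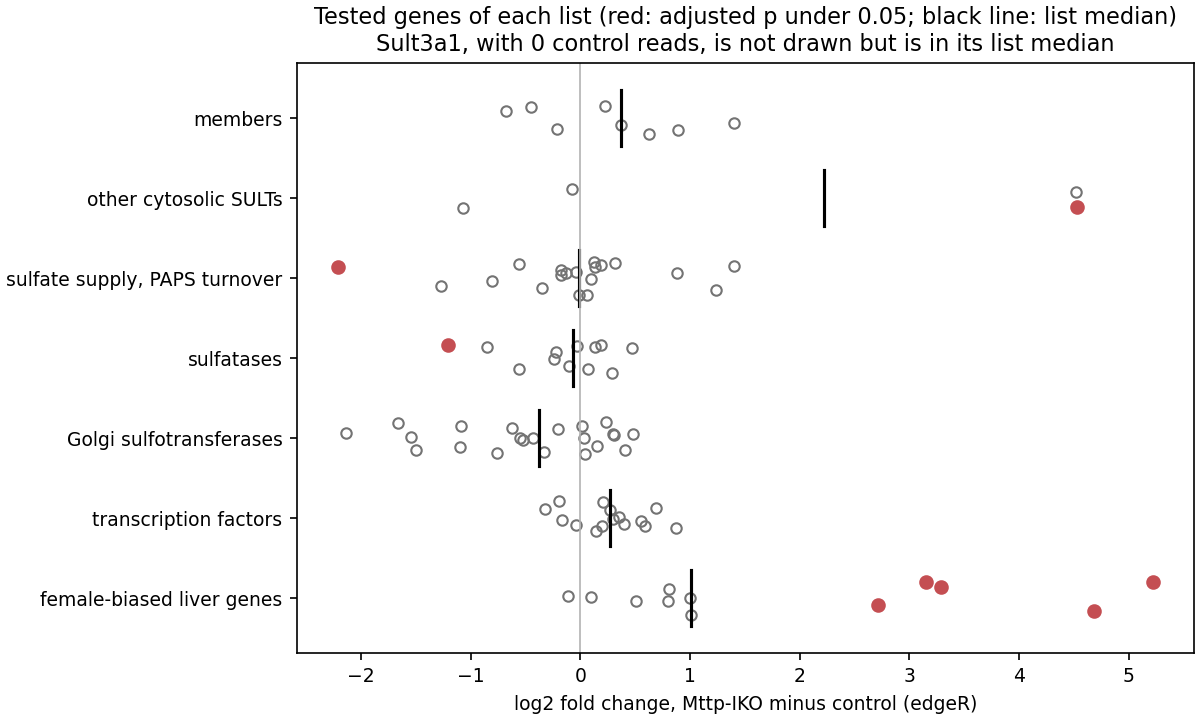
Fitted log2 fold change (*Mttp-IKO* minus control) of each tested gene in 7 lists, with red for adjusted p under 0.05, open grey for the rest and a black line for the list median. The called genes are Sult2a3, Csad, Sulf1 and 5 female-biased genes, and Sult3a1, called but without control reads, is not drawn.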

How the data were processed

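Liver RNA depleted of ribosomal RNA was sequenced from 3 control and 3 *Mttp-IKO* pools. Per the labels and the study's methods, the authors aligned reads with STAR 2.5.1a to GRCm38 (Ensembl release 76) and deposited counts of uniquely aligned, unambiguous reads per gene from featureCounts 1.4.6-p5. The deposited CPM and RPKM columns follow from these counts and were not tested, and 276 repeated lines of the count table were used once. Counts were tested with edgeR 4.0.16 in R 4.3.3 (quasi-likelihood test, filterByExpr minimum count of 10, TMM scaling, Benjamini-Hochberg adjustment over 17287 genes, threshold 0.05), after the scripts were tested on simulated data. CPM per kb used the deposited gene length. Alternatives were DESeq2 1.42.0, limma 3.58.1, other scalings and filters, a replicate block, a gene length trend, a threshold of 0.1 and omission of each pool. Floors of 3 counts and the exact intervals of read ratios cover counting error only. The 95% intervals of log2 fold changes come from the edgeR standard error and include the spread between pools. Replicates are pools, and p-values measure the spread between pools. Members and lists were chosen with earlier results of these data known. All 9 members were named, with all other cytosolic sulfotransferase and sulfate supply genes eligible, up to 3 called genes of average log2 CPM of at least 1 per other list, and 3 genes most like the member with the smallest p. Further female-biased, male-biased and marker genes, Hnf4a, Nr1i2, Nr1i3 and the genes most like Sult1d1 were named after their values were seen. Symbols matched 20 of 22 sulfate supply genes, 14 of 15 sulfatases and 34 of 34 Golgi sulfotransferases. Some genes of these lists are not reported here.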

Additional observations from a re-analysis of the deposited data

How the results depend on the processing

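The number of members called higher, 1 by edgeR, was 2 with Sult1d1 added under DESeq2's Wald test, no filter, protein-coding genes only, the gene length trend removed, the replicate block, the block with the length trend removed and the threshold of 0.1, and 0 to 2 as each pool was left out. With a filter of at least 1 CPM in 3 pools the 1 call was Sult1d1 (adjusted p = 0.0496), because Sult3a1 was not tested. No member was called lower under any alternative. Over all genes, 159 were higher and 535 lower (22.9% higher). Total count scaling gave 112 and 907 (10.99%) and shifted the median log2 fold change to −0.17, DESeq2's Wald test 657 and 1338 (32.9%), the length trend removed 375 and 505 (42.6%, median 0.12), the block with it 343 and 504 (40.5%), limma-voom 116 and 312, and the threshold of 0.1 500 and 1158. Leaving out each pool gave 0 to 302 higher and 0 to 771 lower, with 0 calls without *Mttp-IKO* pool 2, where 3221 genes had an unadjusted p under 0.05. There were 24 calls in all without control pool 1, 21 without control pool 3 and 55 without *Mttp-IKO* pool 1. Of 170 log2 fold changes of the members over the alternatives, 155 kept their direction and side of the threshold. Another 9 (all Sult1d1, including the threshold of 0.1, which refitted nothing) came to pass, and 4 (all Sult3a1) no longer passed. The other 2 changed sign, Sult5a1 at −0.075 without control pool 1 and −0.050 without *Mttp-IKO* pool 3. Sult5a1 ranged from −0.075 to 0.84 as pools were left out. The log2 ratio of Papss2 to Papss1 ranged from −0.028 to 0.87 as pools were left out. Same-numbered pools correlated at 0.14, 0.11 and 0.01 in their deviations from the group means, and differently numbered pools at −0.12 to 0.02. With 3 pools per genotype, whose deviations cancel within each group, these values cannot decide whether the numbers pair the pools. The replicate block called 143 higher and 449 lower. The causes of these shifts were not tested. About 102 *Mttp-IKO* reads in all stand behind Sult3a1, and 3 pools per genotype limit every comparison.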
